A study of Homo sapiens with 8 samples.

Results

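The pentose phosphate pathway was examined through 8 genes that encode its enzymes and the enzymes that use its product: PGLS and PGD of the oxidative branch, RPIA, RPE, TKT and TALDO1 of the non-oxidative branch, and PRPS1 and PRPS2, which make phosphoribosyl pyrophosphate (PRPP). RPIA was chosen by the large fall of its RNA in total RNA on these same arrays, and the others were taken because they belong to its pathway. By RefSeq accession, 9 probes were found for these 8 genes. Of 58201 probes in all, 31104 received a symbol in this way, for 22439 gene symbols, and probes without a symbol were not searched for these genes. All 9 probes, and so all 8 genes, were well above background on each of the 8 arrays, as were 16808 probes for 10959 genes over the whole array.

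A431 is a human cell line from a squamous (epidermoid) carcinoma of the skin. The cells were transfected with 10 nM of a negative control miRNA (miR-NC) or of miR-634, and were lysed 24 h later. From each kind of cell, RNA bound to AGO2, the protein that carries miRNAs to their targets, was collected by RNP immunoprecipitation (RIP) on beads carrying an AGO2 antibody, and the input was total RNA. The 4 groups, Input and RIP of miR-NC cells and of miR-634 cells, had 2 one-color Agilent arrays each. The study speaks of duplicates without saying whether these were separate transfections, so p-values measure the spread between arrays, which may be technical. The labels of the input arrays name normal rabbit IgG as the antibody, whereas the molecule field and the methods name total RNA, and these arrays were treated as input. Everything comes from 1 cell line exposed to a miRNA added from outside, at a single dose and time. In such a bulk sample, fewer cells carrying an RNA and less RNA per cell cannot be told apart.

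In the oxidative branch, glucose phosphate is converted to ribulose phosphate and NADPH is made. The non-oxidative branch interconverts sugar phosphates, and RPIA, ribose phosphate isomerase, makes the ribose phosphate from which PRPP and then nucleotides are built. Squamous carcinoma cells, like other dividing cells, draw on this pathway for NADPH, which keeps glutathione reduced, and for nucleotide precursors. A miRNA bound to AGO2 pairs with matching mRNA mainly through its seed, after which the mRNA is often translated less or degraded.

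The sequence of the transfected miRNA is shown because its seed, bases 2 to 8 and written in capitals, is the part that selects the RNA it brings to AGO2. It is the RefSeq mature sequence of 22 bases, at chr17:66787132-66787153 on the plus strand of GRCh38.p14, inside the span of the PRKCA gene. Of the 2545 human mature miRNAs in the same table, it was the 1 with this seed.
hsa-miR-634: aACCAGCAccccaacuuuggac
No transcript sequence was searched here for matches to the seed, so which members carry a site was not tested.

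Between 45.6% and 45.8% of the spots on the input arrays were well above background, against 33.6% and 34.5% in the miR-NC RIP and 40.0% in both arrays of the miR-634 RIP. Levels below are log2 intensities relative to the array's 75th percentile over the 16808 probes well above background everywhere, so a level of 0 is the intensity at that percentile, and levels of different probes are not comparable. As a check of the labels, the miR-634 targets APIP, BIRC5, TFAM, LAMP2 and XIAP were looked at, and all 5 had a higher RIP level and a higher enrichment in miR-634-overexpressing cells by limma with Benjamini-Hochberg adjustment, where 30.9% and 28.1% of all genes did. These are targets that the study names for these same arrays, so this is no independent check. The 9 markers of squamous keratinocytes (among them EGFR, KRT5 and TP63) were well above background on all 4 input arrays. Of the markers of other cells, this held for 1 of 5 for fibroblasts (LUM), 1 of 4 for leukocytes (CD14) and 2 of 3 for endothelium (CDH5 and VWF). PTPRC of leukocytes was well above background on 3 of the 4 input arrays and COL1A1 of fibroblasts on 1. COL1A2, COL3A1, DCN, CD3E and PECAM1 were well above background on no input array. All arrays were on 1 slide, with inputs in row 1 and RIPs in row 2, and with columns 1 and 2 holding miR-NC and columns 3 and 4 miR-634, so position and group cannot be told apart.

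RNA bound to AGO2 changed for all 8 genes, in both directions. PGLS, PGD, RPIA and TKT gained RIP signal in miR-634-overexpressing cells, by 3.76-, 3.40-, 1.93- and 1.15-fold, and RPE, PRPS2, TALDO1 and PRPS1 were lower, by 3.37-, 1.65-, 1.47- and 1.25-fold. Over all genes tested, limma called 30.9% higher and 46.5% lower in the same comparison, so calls in either direction were common, and 4 higher and 4 lower of 8 do not set the pathway apart. The median log2 RIP change was -0.06 over the 8 genes and -0.18 over all genes. Scaling on the spike-in probes moved the median gene to 0.68, with which the values of TALDO1 (0.31, adjusted p = 0.163), PRPS2 (0.14, adjusted p = 0.544) and PRPS1 (0.54, adjusted p = 0.0126) changed sign and only that of PRPS1 passed as a rise among these 3, whereas PGLS, PGD, RPIA, RPE and TKT kept their direction. Relative to the median gene, under either scaling, PGLS stood at 2.09, PGD at 1.95, RPIA at 1.13, TKT at 0.38, PRPS1 at -0.15, TALDO1 at -0.38, PRPS2 at -0.55 and RPE at -1.57 on the log2 scale. These relative values are the same by construction, since both scalings shift all genes of an array alike. Among the genes called, 39.9% were higher, a share of 95.3% with spike-in scaling, 52.1% with the 75th percentile over all probes and 26.8% with no filter on dim probes.

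In the input, by contrast, the members other than RPIA and PGD moved little. PGD fell by 0.44 on the log2 scale, rank 523 from the lowest of the 10959 genes, where 5% of all genes lay below -0.43. PGLS fell by 0.17, and RPE, TKT, TALDO1, PRPS1 and PRPS2 had log2 differences between -0.06 and 0.12 that did not pass the test. Thus 2 of the 7 members tested were lower and 0 were higher, where 12.1% of all genes were lower and 11.6% higher. At the level of single probes, 18.2% of all measured probes passed in either direction in the input and 76.0% in the RIP. Of the genes called in the input, 48.9% were higher, a share of 61.9% with the 75th percentile over all probes and of 2.87% with spike-in scaling.

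**Figure D1:**
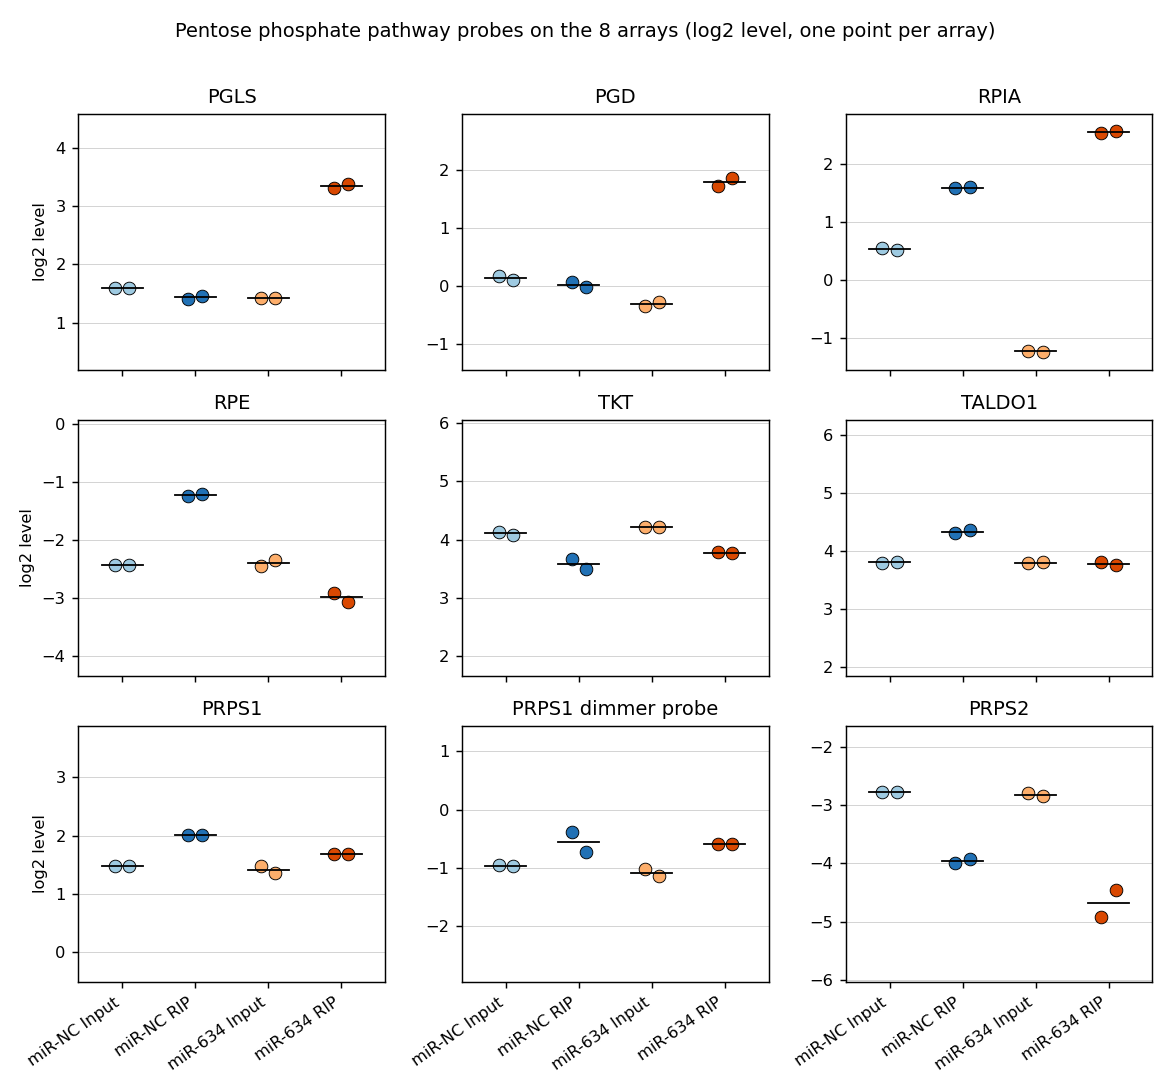
Log2 level (relative to the 75th percentile of its array, vertical axis) of each of the 9 probes, 1 panel per probe, in the 4 groups. Each point is 1 array and each bar the mean of 2 arrays. RPIA is the gene whose input points are far apart between miR-NC (0.56 and 0.52) and miR-634 (-1.21 and -1.24), while PGLS and PGD stand out in the miR-634 RIP.

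PGLS, the lactonase that opens the phosphogluconolactone ring in the oxidative branch, had a single probe found by accession (NM_012088). Its log2 level was 1.59 and 1.60 on the miR-NC input arrays, 1.42 and 1.43 on the miR-634 input arrays, 1.41 and 1.46 in the RIP of miR-NC cells, and 3.31 and 3.37 in the RIP of miR-634 cells. The miR-634 RIP arrays were above all other arrays, and the other 3 groups lay close together. The log2 RIP level rose by 1.91 (standard error 0.05, adjusted p = 3.38e-07 by limma). The input fell by 0.17 (adjusted p = 0.0447), a difference that no longer passed the threshold when any 1 of the 4 input arrays was left out or with most other scalings. The enrichment, which is the RIP level over the input level, was 0.895 in miR-NC cells and 3.78 with miR-634. The fold change of enrichment was thus 4.22 (log2 2.08, adjusted p = 1.49e-06). Of the log2 value, the higher RIP level contributed 1.91 and the lower input 0.17. In miR-NC cells, the depletion of PGLS on AGO2 (adjusted p = 0.017) no longer passed without either miR-NC input array, without the miR-NC RIP array numbered 1, or with median scaling, the percentile over all probes or the authors' values. The log2 enrichment of PGLS there was -0.16, against -0.12 for the median gene.

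PGD, phosphogluconate dehydrogenase, which makes ribulose phosphate and NADPH, also rose in the RIP. Its log2 level (NM_002631) was 0.17 and 0.11 on the miR-NC input arrays, -0.33 and -0.27 on the miR-634 input arrays, 0.07 and -0.015 in the RIP of miR-NC cells, and 1.72 and 1.87 in the RIP of miR-634 cells. The miR-634 input arrays were thus the lowest and the miR-634 RIP arrays the highest, with no overlap between the kinds of cells in either fraction. The RIP level rose by 1.77 (standard error 0.07, adjusted p = 1.65e-06) and the input fell by 0.44 (standard error 0.07, adjusted p = 0.00648), which is 1.36-fold. Without the miR-NC input array numbered 1, the input change was -0.41 and did not pass (adjusted p = 0.0527). In miR-NC cells, the log2 enrichment of PGD was -0.11 and did not pass (adjusted p = 0.162), and in miR-634 cells PGD was enriched by 4.27-fold (adjusted p = 4.55e-07). With spike-in scaling these log2 enrichments were -2.70 and 0.61, where the median gene was at -2.71 and -1.66. Its fold change of enrichment was 4.62 (log2 2.21, standard error 0.10, adjusted p = 4.69e-06), the highest of the 7 members tested.

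RPIA (NM_144563) interconverts ribulose phosphate and ribose phosphate. Its log2 input level was 0.56 and 0.52 in miR-NC cells and -1.21 and -1.24 in miR-634 cells. Its log2 RIP level was 1.59 and 1.60 in miR-NC cells and 2.53 and 2.56 in miR-634 cells. The groups did not overlap in either fraction, and they moved in opposite directions, with less RPIA RNA in the cells and more of it on AGO2. The input difference, -1.77 or 3.41-fold lower, is the value on which RPIA was picked and is given without a test. It ranked second lowest of the 10959 genes, after BRWD1 (-1.78) and before EIF5A2 (-1.48), and 5% of all genes lay below -0.43. On the RIP arrays, which the choice did not use, the level rose by 0.95 on the log2 scale (1.93-fold, standard error 0.04, adjusted p = 3.50e-06 by limma), with 0.94 for the arrays numbered 1 and 0.96 for those numbered 2, and was higher by 1.82 with spike-in scaling. With the scaling as reported, this RIP rise ranked 1321 from the highest of the 10959 genes, and 5% of all genes lay above 1.62.

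RPIA RNA was already 2.07-fold enriched on AGO2 in miR-NC cells, with a log2 enrichment of 1.05 ± 0.04 (SD, n = 2), and 13.6-fold in miR-634 cells, with 3.77 ± 0.04 (SD, n = 2). Both values contain the input arrays and carry no test. The fold change of enrichment was 6.59 (log2 2.72, with 2.71 and 2.72 for the arrays numbered 1 and 2). Of this log2 value, the lower input contributed 1.77 and the higher RIP level 0.95, a division that follows from the choice of RPIA on its input. With spike-in scaling, the log2 enrichment of RPIA was -1.53 in miR-NC cells, against 2.29 in miR-634 cells, where the median gene was at -2.71 and -1.66. Such scaling shifts all genes of an array alike, so it cannot move RPIA relative to the median gene.

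**Figure D2:**
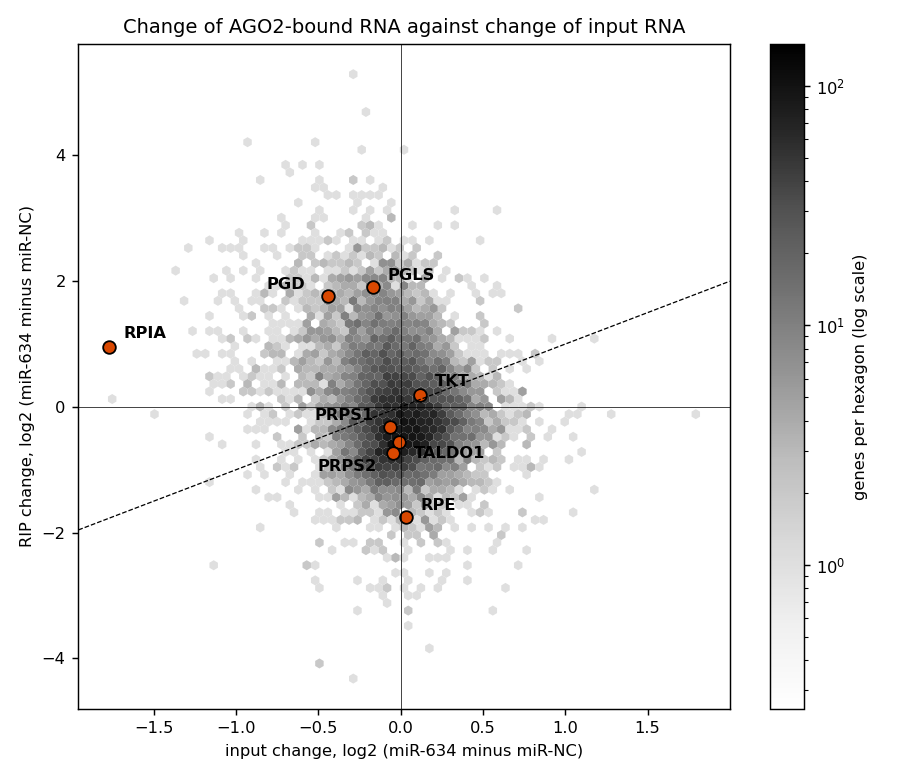
Log2 change of the RIP level (miR-634 minus miR-NC, vertical axis) against log2 change of the input level (horizontal axis) for the 8 members (orange points) over the 10959 measured genes (grey hexagons, shaded on a log scale by the number of genes). On the dashed line both changes are equal. RPIA lies at the far left, at -1.77 and 0.95, next to BRWD1 (-1.78) in the input, PGLS and PGD lie high near the middle, and RPE lies at the bottom.

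RPE, ribulose phosphate epimerase, acts on the same substrate as RPIA and makes xylulose phosphate. Its log2 level (NM_001278283) was -2.42 and -2.43 on the miR-NC input arrays and -2.45 and -2.34 on the miR-634 input arrays, which overlap. On the RIP arrays it was -1.25 and -1.21 in miR-NC cells and -2.90 and -3.06 in miR-634 cells, which are far apart. Less RPE RNA was on AGO2 in miR-634 cells, and the difference in the input did not pass the test. The input difference was 0.03 (95% confidence interval -0.13 to 0.20, adjusted p = 0.753), and the log2 RIP level fell by 1.75 (standard error 0.07, adjusted p = 1.70e-06). RPE went from an enrichment of 2.29 in miR-NC cells (adjusted p = 8.48e-06) to 0.664 in miR-634 cells (adjusted p = 0.000162), a 3.45-fold lower enrichment (log2 -1.79, adjusted p = 1.12e-05). With spike-in scaling, the log2 enrichment in miR-NC cells was -1.39, the RIP change -0.89 and the log2 fold change of enrichment -0.68. The RIP change and the fold change of enrichment thus kept their sign, and the enrichment in miR-NC cells did not. RPE has a close copy, RPEL1, whose own probe was well above background on no input array, and cross-hybridization was not tested.

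TKT, transketolase, and TALDO1, transaldolase, move carbon units between sugar phosphates and link the pathway to glycolysis. The log2 level of TKT (NM_001064) was 4.13 and 4.08 on the miR-NC input arrays, 4.22 on both miR-634 input arrays, 3.67 and 3.49 in the RIP of miR-NC cells, and 3.78 and 3.77 in the RIP of miR-634 cells. The RIP arrays were below the input arrays in both kinds of cells. The RIP level of TKT was higher by 0.20 (standard error 0.06, adjusted p = 0.0291), but without the miR-NC RIP array numbered 2 the difference was 0.11 (adjusted p = 0.112), and leaving out either miR-634 array of either fraction also ended the call. The enrichment of TKT was 0.693 in miR-NC cells and 0.733 with miR-634. The log2 fold change of enrichment was 0.08 (95% confidence interval -0.14 to 0.30, adjusted p = 0.465), but 1.18 with spike-in scaling (adjusted p = 9.86e-05), where the median gene was at 0.89. The RIP change of TKT was 0.37 with the percentile over all probes and 1.06 with spike-in scaling. The input difference was 0.12 (-0.04 to 0.28, adjusted p = 0.24).

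The log2 level of TALDO1 (NM_006755) was 3.80 and 3.81 on the miR-NC input arrays and 3.79 and 3.81 on the miR-634 input arrays. On the RIP arrays it was 4.32 and 4.36 in miR-NC cells and 3.81 and 3.76 in miR-634 cells, at the level of the input. The RIP level of TALDO1 fell by 0.56 (adjusted p = 3.96e-05), and its 1.44-fold enrichment in miR-NC cells (adjusted p = 4.53e-05) was not seen in miR-634 cells, where the log2 enrichment was -0.02 (adjusted p = 0.701). The log2 fold change of enrichment was -0.55 (adjusted p = 0.000301). With spike-in scaling, the RIP change was 0.31, the log2 enrichment in miR-NC cells -2.05 and the log2 fold change of enrichment 0.55, all of opposite sign, and the log2 enrichment in miR-634 cells was -1.50, so these values of TALDO1 are relative to the other genes. The input difference was -0.01 (95% confidence interval -0.11 to 0.10).

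PRPS1 and PRPS2, the PRPP synthetases, carry ribose phosphate into nucleotide synthesis. PRPS1 had a pair of probes for the same accession (NM_002764). On the brighter probe, the log2 level was 1.47 and 1.48 in the miR-NC input, 1.47 and 1.35 in the input of miR-634 cells, 2.01 on both miR-NC RIP arrays, and 1.68 and 1.69 in the miR-634 RIP. The RIP groups were apart and the input groups were not. The RIP level fell by 0.33 (adjusted p = 0.00124), and the enrichment went from 1.45 to 1.21 (log2 fold change of enrichment -0.26, adjusted p = 0.0173). This fold change did not pass with the mean of probes (-0.09, adjusted p = 0.456), the percentile over all probes (adjusted p = 0.286), the authors' values (adjusted p = 0.285), no filter (adjusted p = 0.0503) or without the miR-NC input array numbered 1 (adjusted p = 0.0575), and was 0.84 with spike-in scaling. With the scaling as reported, the median gene was at -0.22, and PRPS1 stood at -0.05 relative to it, so its lower enrichment was close to that of the typical gene.

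The dimmer PRPS1 probe gave -0.96 and -0.97 in the miR-NC input, -1.02 and -1.15 in the input of miR-634 cells, -0.38 and -0.74 in the miR-NC RIP, and -0.60 on both miR-634 RIP arrays. There the RIP groups overlapped, and the RIP change was -0.04 (95% confidence interval -0.32 to 0.24, adjusted p = 0.776 in the fit over probes). Its log2 fold change of enrichment was 0.08 (adjusted p = 0.675). The probes of PRPS1 thus disagree on its fall. With the mean of both, the RIP change of PRPS1 was -0.18 (adjusted p = 0.0578), and with spike-in scaling the RIP change on the brighter probe was 0.54 (adjusted p = 0.0126), of opposite sign. Both probes were enriched on AGO2 in both kinds of cells, by 1.45 and 1.33 in miR-NC cells and by 1.21 and 1.40 in miR-634 cells, calls that 77.5% and 82.5% of all probes also had in one direction or the other. PRPS1L1, an intronless copy of PRPS1, was also measured, and signal shared between them cannot be told apart here.

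PRPS2 (NM_001039091) was the dimmest of these probes on the RIP arrays. Its intensities were 44.8 and 44.1 in the miR-NC RIP and 45.6 and 60.5 in the miR-634 RIP. Before scaling, its signal was thus not lower in the miR-634 RIP, and its lower RIP level there comes with the scaling of the arrays. Its log2 level was -2.77 and -2.76 in the miR-NC input, -2.79 and -2.84 in the input of miR-634 cells, -3.99 and -3.93 in the miR-NC RIP, and -4.91 and -4.46 in the miR-634 RIP. In both kinds of cells it was below the input on AGO2, with an enrichment of 0.438 in miR-NC cells (adjusted p = 0.000216) and of 0.273 in miR-634 cells (adjusted p = 1.63e-05). The RIP level fell by 0.73 (standard error 0.14, adjusted p = 0.0026), but was higher by 0.14 with spike-in scaling. With normexp background correction and quantile normalization, the RIP change of this dim probe was -0.28 (adjusted p = 0.00906) and its log2 fold change of enrichment -0.27 (adjusted p = 0.0487). The log2 fold change of enrichment was -0.68 (adjusted p = 0.018). This fold change did not pass with quantile normalization (-0.53, adjusted p = 0.0591) or without the miR-634 input array numbered 1 (-0.66, adjusted p = 0.0574), was -0.45 without the miR-634 RIP array numbered 1, and was 0.42 with spike-in scaling.

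**Figure D3:**
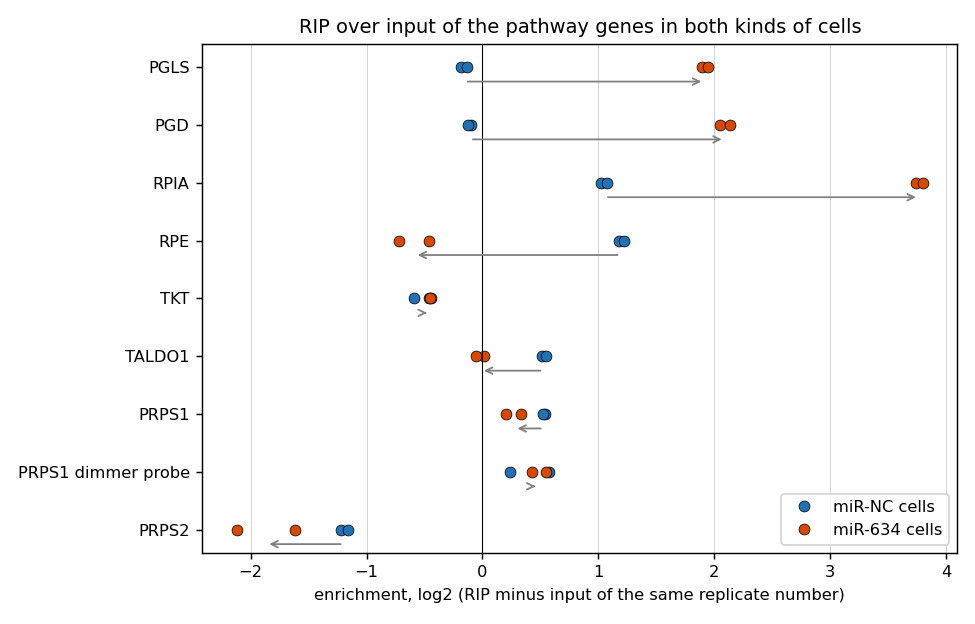
Log2 enrichment (RIP level minus input level, horizontal axis) of each of the 9 probes in miR-NC cells (blue) and miR-634 cells (orange). Each point takes a RIP and an input array of the same number, and each grey arrow runs from the mean in miR-NC cells to the mean in miR-634 cells. PGLS, PGD and RPIA move to the right, RPE crosses from 1.20 to -0.59, and TKT stays near -0.5.

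Set side by side, the members fell on both sides of the input in each kind of cell. In miR-NC cells, RPE, PRPS1 and TALDO1 were enriched on AGO2 and PGLS, TKT and PRPS2 were depleted, 3 and 3 of the 7 tested, where 33.5% of all genes were higher and 45.3% lower in the RIP. In miR-634 cells, PGLS, PGD and PRPS1 were enriched and RPE, TKT and PRPS2 were depleted, again 3 and 3 of 7, where 36.1% were higher and 48.3% lower. The fold change of enrichment was higher for PGLS and PGD and lower for RPE and, other than with spike-in scaling, for TALDO1, PRPS2 and PRPS1, 2 and 4 of 7, where 28.1% of all genes were higher and 43.2% lower. With spike-in scaling, which puts the median gene far below its input in both kinds of cells, RPE, PRPS1 and TALDO1 in miR-NC cells and PRPS1 in miR-634 cells fell below the input too. At the level of probes, 68.4% passed in either direction in the fold change of enrichment. The median log2 fold change of enrichment was -0.26 over the 7 members without RPIA, which is the value of PRPS1, and -0.22 over all genes. These 3 quantities share arrays with each other and with the RIP and input changes, and are different views of the same 8 arrays.

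By branch, the RIP level of both oxidative members rose by over 3-fold. In the non-oxidative branch it rose for RPIA and TKT and fell for RPE and TALDO1. It fell for PRPS2 and for the brighter probe of PRPS1, though not for the dimmer one, and the values of TALDO1, PRPS1 and PRPS2 turn with spike-in scaling. No difference between branches was tested. In the non-oxidative branch, RPIA and RPE, which compete for ribulose phosphate, had enrichments of 2.07 and 2.29 in miR-NC cells and of 13.6 and 0.664 in miR-634 cells. Those of RPIA contain the input arrays on which it was picked. On the RIP arrays alone, the log2 changes were 0.95 for RPIA and -1.75 for RPE.

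Other genes of the pathway and its surroundings, 14 in all, also moved in both directions. Of these, 9 were measured, and H6PD, RPEL1, TKTL1, TKTL2 and RGN were not well above background on all arrays. In the RIP, 5 of the 9 were higher and 3 lower in miR-634 cells, where 30.9% and 46.5% of all genes were. Those higher were the gluconate kinase IDNK (log2 1.85, adjusted p = 0.000104), PRPSAP2, a PRPP synthetase-associated protein (0.91), the sedoheptulokinase SHPK (0.83), the glucose phosphate isomerase GPI (0.74) and the ribokinase RBKS (0.56). The RIP level was lower for 3 of them, the deoxyribose phosphate aldolase DERA (-0.98), PRPSAP1 (-0.74) and PRPS1L1 (-0.23), and PGM2 (-0.05) did not pass. With spike-in scaling, DERA stayed lower (-0.12), and PRPSAP1 (0.13) and PRPS1L1 (0.63) changed sign. In the input, RBKS fell by 0.29 (adjusted p = 0.00535) and the other 8 did not pass (12.1% of all genes were lower and 11.6% higher), with IDNK at -0.60 (adjusted p = 0.0549). The median log2 change of these 9 genes was 0.56 in the RIP and -0.12 in the input, against -0.18 and -0.01 over all genes.

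The enzymes of de novo nucleotide synthesis, which draws on PRPP, also moved both ways. Of 9 genes, 8 were measured and PFAS was not. In the RIP, 3 were higher and 4 lower, near the shares of 30.9% and 46.5% over all genes. The RIP level was higher for GART (log2 2.01, adjusted p = 3.85e-07), PPAT (0.92) and ATIC (0.81), all of purine synthesis. It was lower for ADSL (-0.37) and PAICS (-0.34), also of purine synthesis, and for DHODH (-0.53) and UMPS (-0.50) of pyrimidine synthesis, while CAD (0.04) did not pass. All 4 of these lower values changed sign with spike-in scaling, to between 0.33 and 0.52. In the input, GART fell by 0.50 (adjusted p = 0.00179) and PPAT, which uses PRPP in the first step of purine synthesis, fell by 0.22 (adjusted p = 0.0366), and the other 6 did not pass, where 12.1% of all genes were lower. The log2 fold change of enrichment of GART was 2.51 and that of PPAT 1.14. GART and PPAT thus had the same signs as PGD, with more RNA on AGO2 and less in the input. The median over the 8 genes was -0.15 in the RIP and 0.02 in the input.

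The genes whose levels over the 8 arrays lay nearest to those of RPIA, after centering each gene, were GAREM2, PANK1, TMEM229B, TSPAN15 and ATP6V1F. Their root mean square distances from RPIA were 0.31, 0.33, 0.36, 0.38 and 0.41 on the log2 scale, and their Pearson r with RPIA was between 0.96 and 0.98 over the 8 arrays, which come as 4 groups and share the same scaling. None of these genes had an input change as large as that of RPIA, which follows from the choice of RPIA by its fall in the input. Their log2 input changes were -1.12 for GAREM2, -1.07 for PANK1, -0.98 for TMEM229B, -1.12 for TSPAN15 and -0.75 for ATP6V1F, and their RIP changes were 1.21, 0.43, 1.51, 1.63 and 0.98. Because they were picked for this likeness, these values are descriptions. No other member was among the 5 nearest genes. GAREM2, the nearest, was dim, with log2 levels of -5.55 and -5.53 in the miR-NC input and -6.51 and -6.80 in the miR-634 input. Signal over background therefore limits its likeness to RPIA.

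**Figure D4:**
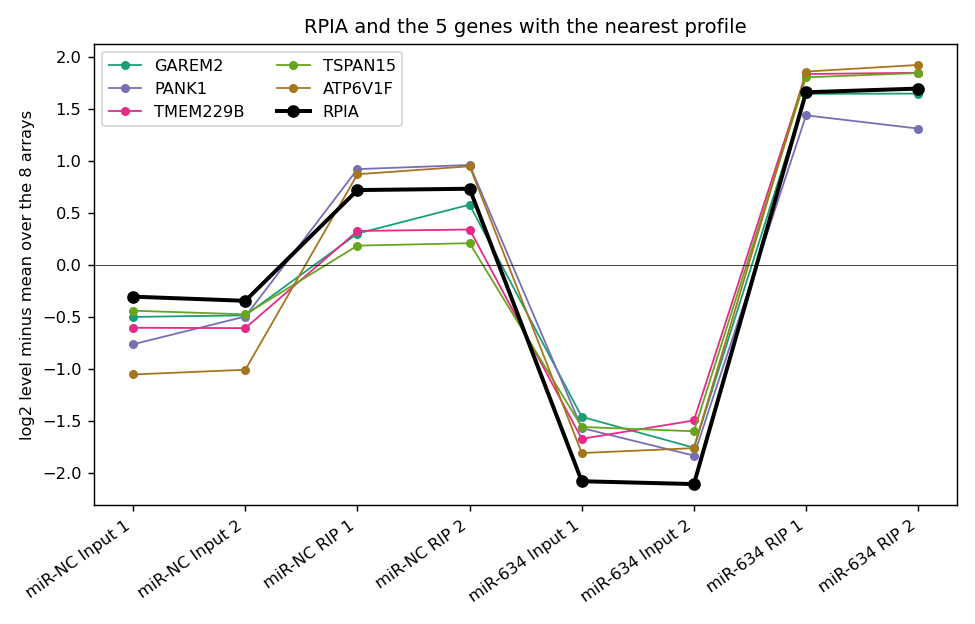
Log2 level centered on each gene's mean over the 8 arrays (vertical axis) for RPIA (thick line) and the 5 genes nearest to it (thin lines), with 1 point per array in the order of the 4 groups (horizontal axis). All 6 genes are lowest in the miR-634 input and highest in the miR-634 RIP.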

How the data were processed

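A431 RNA was measured on 8 Agilent 8 × 60K arrays of the one-color kind, 2 in each of the 4 groups given by the sample labels. The authors deposited, per the file headers, the processed intensity of each spot from Agilent Feature Extraction 12.0.1.1 (the submitters' processing notes name 9.1), with local background subtracted and no normalization between arrays. The authors also deposited processed log2 values, which matched log2 intensities shifted by the 75th percentile of all probes and then centered on each probe's median (r = 1.0000 on every array), and which were used only as an alternative.

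Control and outlier spots were left out, spots of a probe were averaged, and the 75th percentile over the 16808 probes (28.9%) well above background on all 8 arrays was subtracted from each array's log2 intensities. No spot was saturated. Of 33080 probes with a RefSeq accession, 31104 received a symbol from RefSeq's genes (GRCh38.p14) after versions were cut off. The array design is older than this table, so no gene coordinates are given. The brightest measured probe stood for a gene, and the pair of PRPS1 probes is given separately from a fit over probes. The median SD of replicate arrays was between 0.04 and 0.06 on the log2 scale.

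Changes were tested with limma 3.58.1 under R 4.3.3 (a mean for each of the 4 groups in lmFit, then eBayes), two-sided, with Benjamini-Hochberg adjustment over the 10959 measured genes and a threshold of 0.05. The number of arrays limits the precision, with 4 residual and 2.35 prior degrees of freedom. The code was tested on simulated data. Named genes are the members, the genes of the fixed pathway, nucleotide synthesis, target and marker lists that are called, and the 5 genes nearest to RPIA. BRWD1 and EIF5A2 are named as its neighbors in rank, and PGM2 and CAD as the remaining members of their lists. One marker gene is not reported here. The members and lists were chosen with earlier results of these data known.

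Alternatives were normexp background correction (offset 50, on the median signal, as the mean signal was not used here) with quantile normalization, quantile normalization alone, median scaling, the percentile over all probes, scaling on 8 spike-in probes, the authors' values, filters on the input arrays or none, the mean of probes, a replicate block, eBayes with an intensity trend, leaving out 1 array and a t-test on the enrichment per replicate number. The study names the t-test for its statistics in general. For these arrays it took the fold change of enrichment of XIAP as the cutoff, which was not applied here. All arrays were in 1 scan, so no slide block was fitted. Whether duplicates were separate transfections is not given in the sources used here. Python 3.11.15, pandas 2.3.3 and matplotlib 3.10.9 were used for tables and plots.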

Additional observations from a re-analysis of the deposited data

Results flagged for a closer look

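The difference of RIP over input between miR-634 and miR-NC cells, tested directly by limma with Benjamini-Hochberg adjustment, passed the threshold for 6 of the 7 members tested, where 28.1% of all genes were called higher and 43.2% lower. A t-test on the enrichment per replicate number called 4 of the 7. On the log2 scale, where the median over all genes was -0.22, the difference was 2.08 for PGLS, 2.21 for PGD, -1.79 for RPE, -0.55 for TALDO1, -0.26 for PRPS1 and -0.68 for PRPS2. On these probes, the direction was the same in the arrays of each number for all 6, but the dimmer PRPS1 probe gave -0.15 for the arrays numbered 1 and 0.31 for those numbered 2. With spike-in scaling, TALDO1, PRPS1 and PRPS2 changed sign, to 0.55, 0.84 and 0.42. No cause was tested.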

How the results depend on the processing

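The calls of PGLS, PGD, RPIA and RPE in the RIP kept their direction and passed under all alternatives run. The number of members called in the input, 2 as reported, was 1 with normexp and quantile normalization, median scaling, the 75th percentile over all probes, spike-in scaling, the authors' values, a filter on the input arrays, no filter and the replicate block, and 0 to 2 with 1 array left out. The genes called in the input numbered 2602, against 1729 with the percentile over all probes, 870 with spike-in scaling, 940 with no filter and 943 to 2888 with 1 array left out. With no filter, more genes were tested, and the genes called numbered 14254 in the RIP (8483 as reported), 15674 for enrichment in miR-NC cells (8641), 15378 in miR-634 cells (9252) and 11950 for its fold change (7809). The t-test on the enrichment per replicate number called 5239 genes in the fold change of enrichment after adjustment and 6523 before, and 4 of the 7 members in either case.

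Spike-in scaling reversed several log2 values. In the RIP, TALDO1 was 0.31, PRPS1 0.54 and PRPS2 0.14. In the input, RPE was -0.20 and TKT -0.12. The enrichment in miR-NC cells was -1.53 for RPIA, -1.39 for RPE, -2.05 for TALDO1 and -2.05 for PRPS1, and that in miR-634 cells was -1.21 for PRPS1. The fold change of enrichment was 0.55 for TALDO1, 0.84 for PRPS1 and 0.42 for PRPS2. Here the median gene had -2.71 in control cells and -1.66 in miR-634 cells, with a fold change of 0.89 and an input change of -0.24. The share of higher calls in the enrichment was 0.527% and 6.72% with this scaling (42.5% and 42.8% as reported) and 63.7% and 59.0% with no filter, and in its fold change 97.7% and 27.5% (39.4% as reported).

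Values near 0 also changed sign. The input change of TALDO1 was 0.012 with normexp, 0.05 with quantile normalization, 0.0495 with the percentile over all probes and 0.0483 with the authors' values, and that of PRPS2 was 0.0095 and 0.0083 with the latter pair. The enrichment of TALDO1 in miR-634 cells was 0.0755 with median scaling, 0.09 with the percentile over all probes and 0.0890 with the authors' values. With 1 array left out, the input change of RPE ranged from -0.0201 to 0.0886 and that of TALDO1 from -0.0142 to 0.0013, the enrichment of TALDO1 in miR-634 cells from -0.0440 to 0.0063, and the fold change of enrichment of TKT from -0.0095 to 0.17.

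The fall of PRPS1 in the RIP did not pass with the percentile over all probes (-0.15, adjusted p = 0.12) or the authors' values (-0.15, adjusted p = 0.117). Same-numbered arrays did not deviate together (r between -0.04 and 0.08 over genes). With the replicate number as a block, 8456 genes were called in the RIP, 2261 in the input, 8608 and 9246 in the enrichment in miR-NC and miR-634 cells, and 7801 in its fold change. Signal over background limits PRPS2, the dimmest member on the RIP arrays.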
